A study of Mus musculus with 42 samples.

Results

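Hcrt, Pmch and Npvf each encode the precursor of a hypothalamic peptide, and Parpbp is the gene whose last exon lies across Pmch on the opposite strand. These 4 genes were taken by their symbols from a table of 37907 mouse genes, and all 4 passed the filter that left 33579 genes for testing. They are described in 8 groups of libraries from the arcuate nucleus (ARC), ventromedial hypothalamus (VMH), dorsomedial hypothalamus (DMH) and paraventricular nucleus (PVN). The nuclei were cut out of brain sections of adult wild-type C57/BL6 male mice with a laser, and their RNA was amplified and sequenced. The mice had either eaten ad libitum or gone 24 hours without food, and no allele or agent set one group apart from another. There were 5 ARC-Fed, 5 ARC-Fast, 6 VMH-Fed, 6 VMH-Fast, 5 DMH-Fed, 4 DMH-Fast, 6 PVN-Fed and 5 PVN-Fast libraries. A captured nucleus held neurons, glia and vessels together, so these are bulk values.

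Hcrt encodes prepro-orexin (hypocretin), which is cut into the orexin peptides of neurons that sustain wakefulness and promote feeding. Pmch encodes the precursor of melanin-concentrating hormone (MCH), a peptide that promotes feeding and sleep. Npvf encodes the RFamide-related peptides, best known for restraining the reproductive axis. Orexin and MCH neurons lie mainly in the lateral hypothalamic area and the zona incerta beside the DMH and reach its border, while Npvf neurons lie in and around the DMH itself. Parpbp encodes a PARP1-binding protein that limits homologous recombination in dividing cells and is no peptide gene.

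On the mouse build GRCm38, Hcrt lay on chromosome 11 from 100761069 to 100762931 on the minus strand, with 3 exons of 749 bases in all. Npvf lay on chromosome 6 from 50650672 to 50654439 on the minus strand, with 3 exons of 812 bases. Neither gene shared an exon base, or a stretch of 50 bases of its transcript, with another gene. Pmch lay on chromosome 10 from 88091072 to 88092375 on the plus strand, with 3 exons of 749 bases. Parpbp ran from 88091432 to 88146941 on the minus strand of the same chromosome, with 11 exons of 3594 bases. The 150 bases before the start of the 3 peptide genes are shown because the 3 were high in the same nucleus. Capitals mark TATAAA, the letters of a TATA box, which began 33, 27 and 29 bases before the RefSeq start of Hcrt, Pmch and Npvf. The sequences are from RefSeq on GRCm38.p6, whose start of Npvf lies a few bases upstream of the end given above, read 5′ to 3′ on the strand of the gene.
Hcrt, chr11:100762932-100763081, minus strand: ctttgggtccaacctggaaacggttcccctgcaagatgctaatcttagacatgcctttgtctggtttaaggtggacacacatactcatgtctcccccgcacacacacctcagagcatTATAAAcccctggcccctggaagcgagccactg
Pmch, chr10:88090922-88091071, plus strand: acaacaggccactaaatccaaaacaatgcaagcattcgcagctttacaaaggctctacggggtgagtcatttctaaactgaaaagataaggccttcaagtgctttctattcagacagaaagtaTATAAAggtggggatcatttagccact
Npvf, chr6:50654446-50654595, minus strand: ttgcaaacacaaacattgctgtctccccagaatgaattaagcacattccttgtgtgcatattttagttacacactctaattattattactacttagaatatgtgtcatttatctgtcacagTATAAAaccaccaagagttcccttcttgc
Over the 250 bases before the start of 32851 mouse promoters, 12.4% held TATAAA on either strand (TATAAA or TTTATA). This share counts any place in the 250 bases, so it is not the share with TATAAA on the gene strand at the place marked above.

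Levels were deposited as RPKM, reads per kilobase of exon scaled to the reads of the library. The estimated depth was 4.57 M reads in the mean and ran from 1.33 to 13.2 M reads, with 3.91 ± 0.862 M in DMH-Fed (SD, n = 5) and 7.38 ± 4.004 M in DMH-Fast (n = 4). A gene with no reads was not at 0 in this table. It sat at a value that the libraries of a set had in common, and the 42 libraries fell into 3 such sets of 10, 16 and 16 libraries (sets 1, 2 and 3). For Hcrt the no-read value was 2.22, 1.10 and 1.28 RPKM in sets 1, 2 and 3, so levels near 1 or 2 RPKM stood for very few reads. For each member the reads of each library were recovered from these steps, and they are given here scaled to the mean depth ("scaled reads"). For Pmch the no-read value was 3.01 RPKM in set 1 and 0.981 in set 2, which is 3.07 times higher in set 1. For Hcrt this ratio was 2.02, for Npvf 2.69 and for Parpbp 4.51. Reads were recovered as steps in proportion to the no-read value, so the ratio scales every value of a gene in a set. RPKM of different sets are therefore not on 1 scale, and means, SDs and correlations in RPKM carry this difference. In DMH-Fed library 1, of set 1, Pmch was at 1003 RPKM and 1661 scaled reads. In DMH-Fed library 2, of set 2, it was at 307 RPKM and 1562 scaled reads. DMH-Fed library 1 was the only DMH library of set 1.

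Hcrt was read in all 9 DMH libraries. In DMH-Fed it was at 446, 170, 222, 48.8 and 49.6 RPKM in libraries 1 to 5. In DMH-Fast it was at 187, 127, 94.7 and 204 RPKM in libraries 1 to 4. The highest and the lowest of the 9 were both fed libraries, and the fasted ones lay between them. As scaled reads the fed libraries held 998, 767, 1003, 186 and 189, and the fasted ones 843, 570, 366 and 794. On that scale DMH-Fed library 1 was level with library 3, and fed libraries 4 and 5 remained the lowest. The group means were 187 ± 163 RPKM in DMH-Fed (SD, n = 5) and 153 ± 51.1 in DMH-Fast (n = 4). Without DMH-Fed library 1 the fed mean was 123 ± 87.3 RPKM (n = 4). The SD of log2(RPKM + 1) over DMH-Fed was 1.39 for Hcrt, against a median of 0.191 over the 2964 genes with a DMH mean of at least 20 RPKM.

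**Figure D1:**
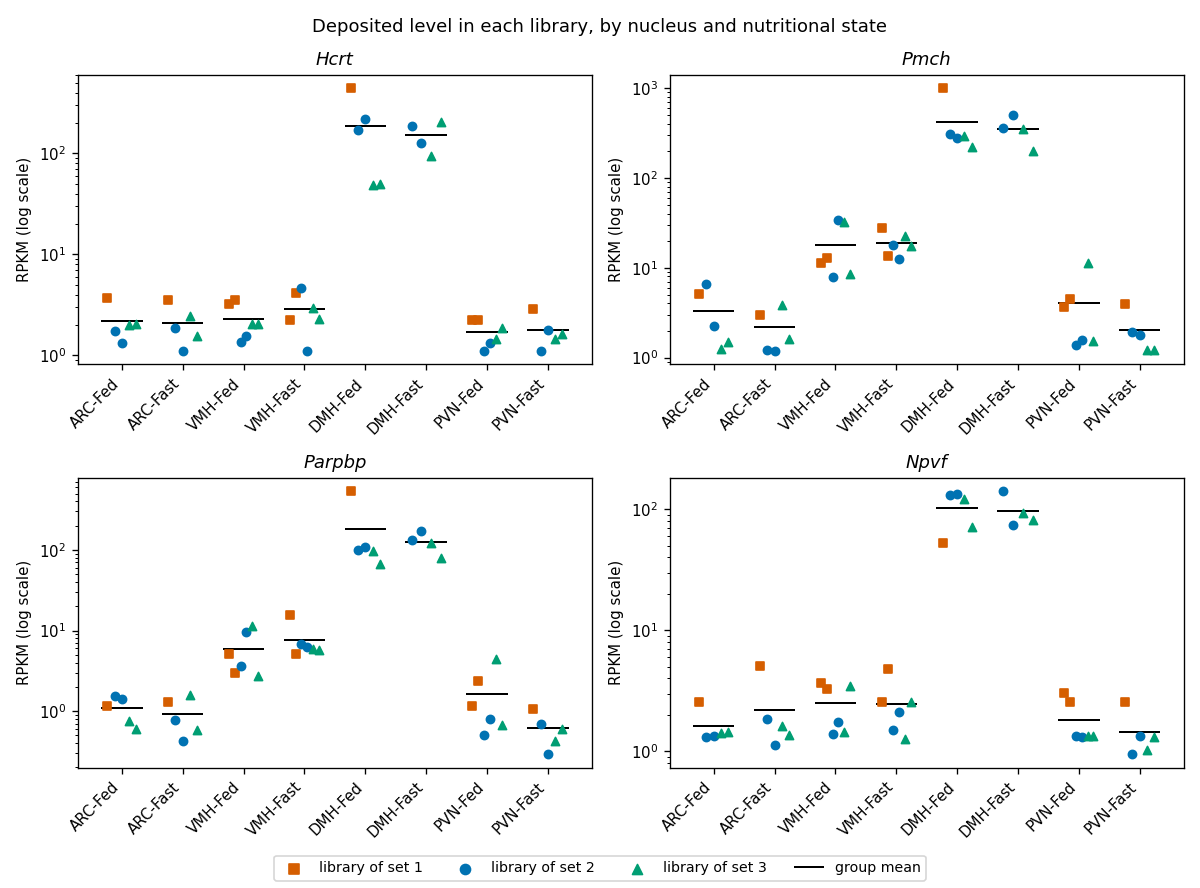
RPKM of the 4 genes in each of the 42 libraries, on a log axis, by group. A point is a library, its colour and shape give its set, and a bar is the group mean. All 9 DMH libraries lie above all 33 others for each gene, the VMH libraries hold intermediate levels of Pmch and Parpbp, and DMH-Fed library 1 of set 1 is the highest point for Hcrt, Pmch and Parpbp but the lowest DMH point for Npvf.

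Outside the DMH, Hcrt was at the edge of detection. The 33 ARC, VMH and PVN libraries held between 0 and 22 reads of Hcrt, with a median of 2, and 7 of them held none. VMH-Fast library 3 held the 22 reads. Group means ran from 1.697 ± 0.474 RPKM in PVN-Fed (n = 6) to 2.91 ± 1.33 in VMH-Fast (n = 6). The order of the means was DMH-Fed, DMH-Fast, VMH-Fast, VMH-Fed, ARC-Fed, ARC-Fast, PVN-Fast and PVN-Fed, and the step from the DMH to the VMH was the only one between neighbours whose libraries did not overlap. The no-read value of Hcrt in set 1, 2.22 RPKM, lay among the means outside the DMH. Their order therefore rests on no-read values and very few reads.

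Npvf had the smallest SD of log2(RPKM + 1) of the 3 peptide genes in the DMH, 0.605 in DMH-Fed and 0.404 in DMH-Fast. This ranking was one of RPKM. As scaled reads in DMH-Fed, Npvf was at 487 ± 262 and Pmch at 1410 ± 239 (n = 5), so Npvf varied more for its mean than Pmch. In DMH-Fed it was at 52.5, 132, 135, 121 and 72.003 RPKM, and in DMH-Fast at 141, 74.5, 93.7 and 81.5 RPKM. Fed and fasted libraries covered nearly the same range. As scaled reads the fed libraries held 98.6, 696, 714, 584 and 345, and the fasted ones 746, 391, 450 and 391. DMH-Fed library 1, which was the highest of the 9 for Hcrt in RPKM, had the fewest Npvf reads of all, 77 before scaling. The means were 103 ± 37.8 RPKM in DMH-Fed (n = 5) and 97.8 ± 30.1 in DMH-Fast (n = 4), and the fed mean without library 1 was 115 ± 29.3 RPKM (n = 4). Elsewhere Npvf had 0 to 9 reads a library, with none in 6 of 33 libraries, and group means from 1.43 ± 0.640 RPKM in PVN-Fast to 2.502 ± 1.08 in VMH-Fed. VMH-Fed came next after the DMH groups in order, and its libraries did not reach those of the DMH. Its mean lay under the no-read value of Npvf in set 1, 2.53 RPKM. The order of the means outside the DMH therefore rests on no-read values and very few reads.

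Pmch was the most abundant of the 3 per length of transcript in the DMH. In DMH-Fed it was at 1003, 307, 277, 294 and 220 RPKM, and in DMH-Fast at 363, 504, 355 and 197 RPKM. Fed library 1 stood apart from the other 8 on this scale. Parpbp gave 535, 101, 107, 97.8 and 67.3 RPKM in DMH-Fed and 132, 172, 121 and 79.8 RPKM in DMH-Fast, with the same library apart. Without DMH-Fed library 1 the fed means were 275 ± 38.6 RPKM for Pmch and 93.3 ± 17.8 for Parpbp (n = 4), against 420 ± 327 and 182 ± 198 RPKM with it (n = 5). The order of the Pmch means was DMH-Fed, DMH-Fast, VMH-Fast, VMH-Fed, PVN-Fed, ARC-Fed, ARC-Fast and PVN-Fast, and neighbours overlapped except at the step from the DMH to the VMH.

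The levels of Pmch and Parpbp cannot be separated in these deposited gene values, which came from unstranded reads. Their exons shared 435 bases, 58.1% of the exon bases of Pmch and 12.1% of those of Parpbp. Of these bases 246 code for protein in Pmch and 0 in Parpbp, where they lie in the untranslated end of its last exon. Recovered reads of each gene alone were whole numbers, within 0.02 reads, in 34 of 42 libraries, and 6 of the 8 libraries that were not whole were among the 9 of the DMH. The sum of both genes was whole in 42 of 42. The no-read value of Pmch in each set was chosen to make this sum whole in the most libraries, so that count is no independent test. Read this way, a fraction of a read was given to each gene in the 8 libraries. The sum of both genes, called the Pmch locus here, does not depend on how reads were divided. In the DMH, Parpbp was given between 62.3% and 68.6% of the locus reads, 66.1% in all. In the VMH it was given 65.5% in all, in the ARC 74.4% and in the PVN 72.6%, with far fewer reads. Over the 42 libraries Parpbp followed Pmch with a Pearson r of 0.99, and how much of its level is its own transcript was not tested.

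**Figure D2:**
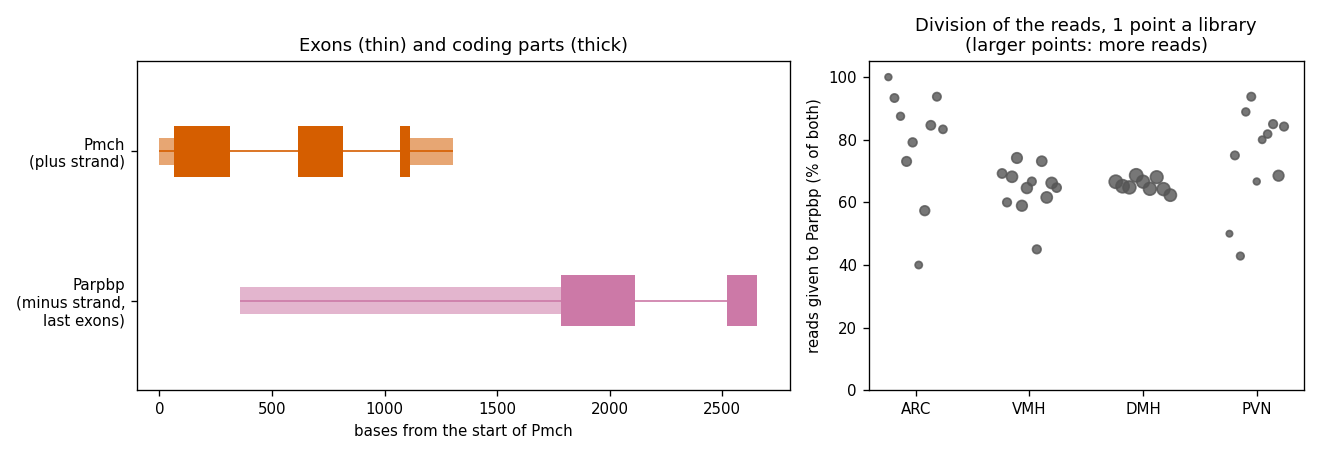
Left, the exons of Pmch and the last exons of Parpbp, drawn to scale against the distance in bases from the start of Pmch, with coding parts thick. Right, the percent of the reads of both genes that was given to Parpbp in each library, by nucleus. The last exon of Parpbp covers the last exons of Pmch, and the 9 DMH points sit between 62.3% and 68.6% while ARC and PVN points, with few reads, scatter.

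The Pmch locus as scaled reads gave 4975, 4380, 4404, 3872 and 2741 in DMH-Fed and 5520, 7359, 4744 and 2956 in DMH-Fast. On this scale DMH-Fed library 1 was the highest fed library and lower than 2 of the 4 fasted ones, and DMH-Fast library 2 was the highest. The lowest fed and the lowest fasted library were close to each other.

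**Figure D3:**
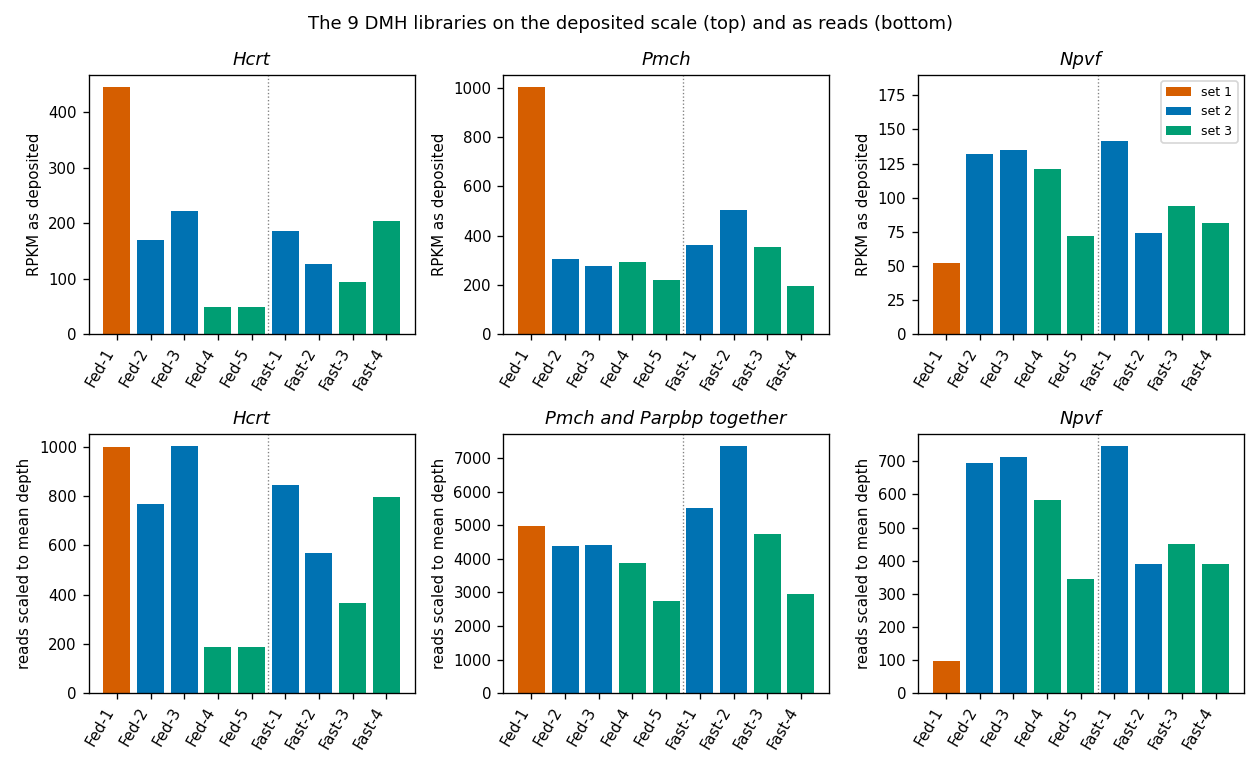
The 9 DMH libraries as deposited RPKM (top) and as reads scaled to the mean depth (bottom) for Hcrt, Pmch (bottom: Pmch and Parpbp together) and Npvf. A bar is a library and its colour is its set. DMH-Fed library 1 is at 1003 RPKM of Pmch against 197 to 504 in the others, but at 4975 scaled reads of the locus against 2741 to 7359, and it is the lowest library for Npvf on both scales.

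The VMH held a lower but readable level of Pmch. In VMH-Fed the 6 libraries ran from 7.87 to 33.7 RPKM with a median of 11.99, and in VMH-Fast from 12.6 to 27.8 RPKM with a median of 17.8. The locus had 18 to 426 reads in each of the 12 VMH libraries, against 3 to 68 in the 10 of the ARC. In the PVN 10 of the 11 libraries held 2 to 20 reads, and PVN-Fed library 5 held 212. Hcrt and Npvf had group means under 3 RPKM in the VMH. For each Hcrt read the VMH libraries held 47.2 reads of the Pmch locus in all and the DMH libraries 6.58, although the 10 VMH libraries with any Hcrt read ran from 10 to 204 and the 9 DMH libraries from 3.72 to 20.8, so that they overlapped. For each Npvf read the ratios were 60.7 in the VMH and 8.90 in the DMH, with single libraries from 8.5 to 224 and from 6.17 to 50.4, which overlapped as well.

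The members were known to stand out in DMH-Fed when they were chosen, so the fed levels above carry no test. The fasted libraries are other samples, and in them each nucleus was compared with the DMH by limma on log2(RPKM + 1), with an adjusted p under 0.1 as the threshold. The spread of each gene was estimated over all 42 libraries, fed ones included. Earlier results of these data were known when the members were chosen, so these p-values are not shown to be free of that choice. All 4 genes were higher in DMH-Fast than in ARC-Fast, VMH-Fast and PVN-Fast. The background of these comparisons was that 1.9% of the genes tested were higher in DMH-Fast than in ARC-Fast, 2.02% higher than in VMH-Fast and 1.65% higher than in PVN-Fast. A gene with no reads could pass the filter, since the median no-read value was 1.601 RPKM. These shares therefore include unread genes and would be larger among expressed genes alone. Hcrt exceeded the ARC by 5.62 (SE 0.41), the VMH by 5.31 (SE 0.39) and the PVN by 5.76 (SE 0.41) on the log2 scale, with limma adjusted p of 3.36e-12, 9.57e-12 and 2.39e-12. Npvf exceeded them by 5.02 (SE 0.30), 4.86 (SE 0.29) and 5.34 (SE 0.30), with limma adjusted p of 3.59e-14, 1.42e-13 and 8.83e-15. Its SE was the smallest of the 4 genes. Pmch exceeded the ARC by 6.81 (SE 0.47) and the PVN by 6.88 (SE 0.47), and the VMH by 4.14 (SE 0.46), with limma adjusted p of 1.52e-12, 1.50e-12 and 6.90e-08. Parpbp exceeded the ARC by 6.02, the VMH by 3.93 and the PVN by 6.27, with the shared reads of Pmch in each value. Every DMH-Fast library was above every other fasted library for all 4 genes, which held for 2.32%, 2.04% and 2.41% of the genes tested in the 3 comparisons. The two-sided exact permutation p was 0.00794 against the ARC and PVN and 0.00476 against the VMH, the smallest these group sizes allow. The nuclei were dissected from the same brains, but the labels do not tie libraries to mice, so the tests treat libraries that share a mouse as independent. In bulk tissue, more cells of a type and more RNA per cell cannot be told apart.

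The same differences between VMH-Fast and the ARC and PVN are given as a description, with no test, since the intermediate level had been seen in these libraries. For Pmch the log2 difference was 2.67 (95% confidence interval 1.80 to 3.54) against ARC-Fast and 2.73 (1.86 to 3.60) against PVN-Fast. For Parpbp it was 2.10 and 2.34. The VMH exceeded the ARC by 2.36, 2.88 and 2.56 for Pmch within sets 1, 2 and 3. For Hcrt the differences were 0.31 (95% confidence interval -0.44 to 1.05) and 0.45 (-0.29 to 1.19), and for Npvf 0.15 (-0.40 to 0.71) and 0.47 (-0.08 to 1.03).

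The question of the study's design for these genes was whether 24 hours of fasting changed them in any nucleus. None of the 16 comparisons of a member between fasted and fed libraries passed the threshold, and the smallest limma adjusted p was 0.951, for Parpbp in the VMH. In the same fit 0.0566% of the genes tested passed in the ARC, 0.131% for the VMH, 0.0238% for the DMH and 0.0715% for the PVN. In the DMH the fasted minus fed difference was 0.14 for Hcrt (SE 0.41, 95% confidence interval -0.69 to 0.96). For Npvf it was -0.02 (SE 0.30, interval -0.64 to 0.59). For Pmch it was -0.07 (SE 0.47, interval -1.04 to 0.89) and for Parpbp -0.11 (SE 0.42, interval -0.97 to 0.76). Changes inside these intervals remain possible with 5 fed and 4 fasted libraries. The intervals do not give the smallest change that would have passed the threshold, which was not tested.

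**Figure D4:**
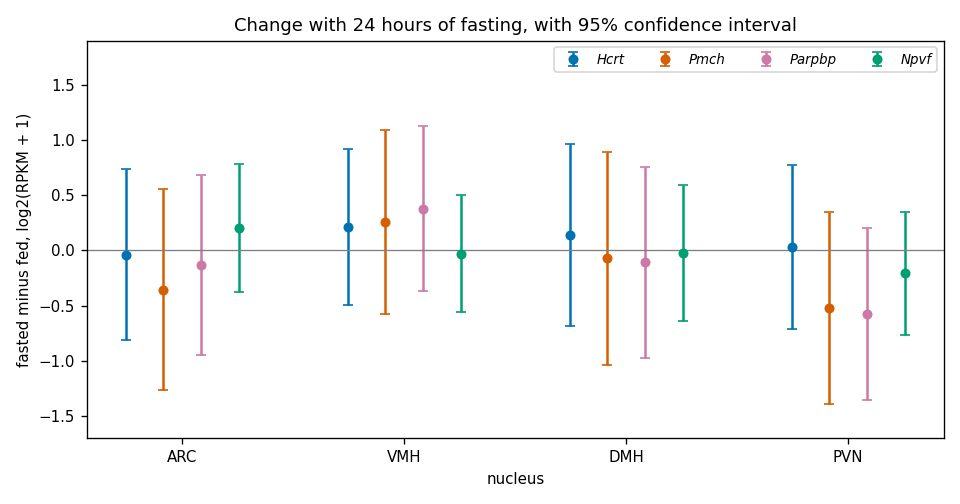
Fasted minus fed difference of log2(RPKM + 1) for the 4 genes in each nucleus, with its 95% confidence interval from limma. All 16 intervals include 0.

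The sign of these DMH differences rested on single libraries. Without DMH-Fed library 1, the difference was 0.57 for Hcrt (SE 0.36), 0.30 for Pmch (SE 0.46), 0.40 for Parpbp (SE 0.36) and -0.24 for Npvf (SE 0.30), and each limma adjusted p was 1. Within set 2, with 2 fed and 2 fasted libraries, Hcrt differed by -0.33 and within set 3, also 2 against 2, by 1.48. The fed libraries of set 3 were libraries 4 and 5, the lowest of the DMH for Hcrt. Pmch differed by 0.55 and 0.06 within sets 2 and 3, and Npvf by -0.38 and -0.10. On scaled reads the differences were 0.33 for Hcrt, 0.24 for Pmch, 0.32 for Parpbp and 0.26 for Npvf, and the two-sided exact permutation p was 0.603, 0.429, 0.310 and 0.825. The fasted DMH libraries had the higher mean depth, given above, although the groups overlapped and DMH-Fast library 4 was the deepest at 13.2 M reads. The part of depth was not tested.

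In the other nuclei the values farthest from 0 were Parpbp and Pmch in the PVN, at -0.57 (SE 0.38) and -0.52 (SE 0.43). PVN-Fed library 5, with 212 locus reads, was part of both, and without it they were -0.33 and -0.20. In the VMH, Pmch differed by 0.26 (interval -0.57 to 1.09) and Hcrt by 0.21 (-0.50 to 0.92). In the ARC, Npvf differed by 0.20 (-0.38 to 0.78) and Pmch by -0.35 (-1.26 to 0.56). In the test of an unequal fasting response over the 4 nuclei, the interaction of nucleus and state, the limma adjusted p was 1 for each member, where 0.00596% of the genes tested passed.

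The peptides act on other cells through 5 receptors on the list, which were all measured at low levels. Mchr1, the MCH receptor, had the highest level, from 3.29 ± 1.48 RPKM in DMH-Fast (n = 4) to 12.5 ± 5.81 in PVN-Fast (n = 5). Hcrtr2, an orexin receptor, ran from 2.46 ± 0.978 RPKM in PVN-Fast to 7.72 ± 3.77 in ARC-Fast (n = 5). Hcrtr1, the other orexin receptor, was highest in VMH-Fed at 4.74 ± 2.56 RPKM (n = 6) and lowest in ARC-Fed at 0.709 ± 0.246. Npffr1, the receptor of the RFamide-related peptides, lay between 1.37 ± 0.859 RPKM in DMH-Fed and 4.23 ± 5.15 in VMH-Fast, where library 1 alone was at 14.6. Npffr2, a related receptor, had group means up to 2.41 ± 1.24 RPKM, in ARC-Fast. The median no-read value over all genes, 1.601 RPKM, is not that of these receptors, since the no-read value was lower for longer genes. Over the sets its geometric mean was 1.46 RPKM for Hcrt, of 749 exon bases, and 0.305 for Parpbp, of 3594. The receptors had from 1643 (Npffr2) to 6162 (Hcrtr2) exon bases. Their reads were not recovered, so how many reads these levels rest on was not tested.

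No receptor had its highest group mean in the DMH. Of the 5 receptors, 0 were higher in DMH-Fast than in any other fasted nucleus by the threshold, and 2 were lower than in ARC-Fast. The log2 difference of Hcrtr2 was -1.18 (SE 0.26, limma adjusted p = 0.00620). That of Mchr1 was -1.24 (SE 0.37, limma adjusted p = 0.0770), and Mchr1 was also lower than in PVN-Fast, with a difference of -1.61 (SE 0.37, limma adjusted p = 0.00997). The lower direction passed for 1.3% of all genes tested against the ARC and 1.36% against the PVN. The median difference of the 5 receptors was -0.18, -0.47 and 0.10 against the ARC, VMH and PVN, beside 0 over all genes tested in each. With fasting 0 of 5 receptors passed in any nucleus. The largest value was in the ARC for Mchr1, at 0.63 (SE 0.35, limma adjusted p = 0.750), and Hcrtr2 there was at 0.50 (SE 0.24, limma adjusted p = 0.660).

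**Figure D5:**
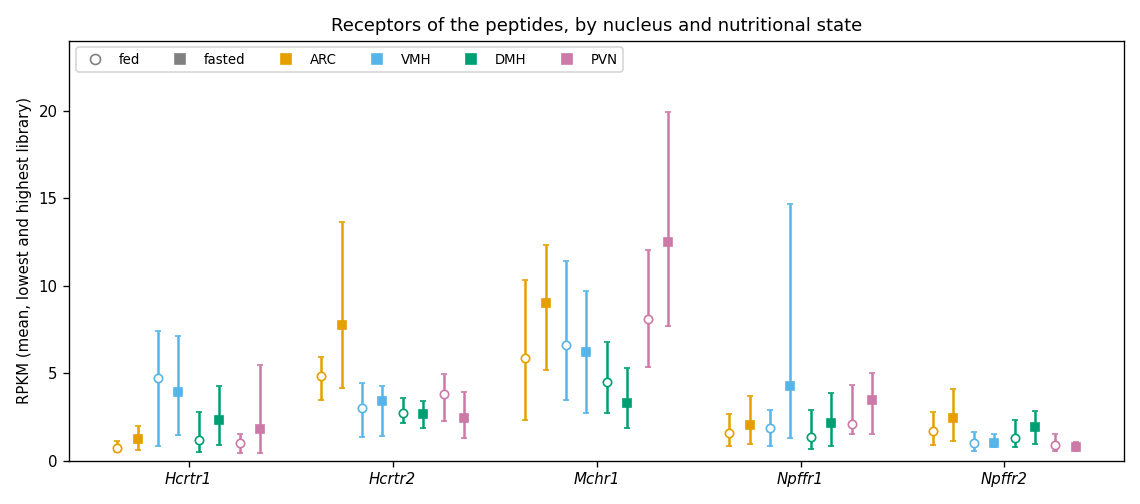
RPKM of the 5 receptors in the 8 groups. A point is the mean of a group and its bar runs from the lowest to the highest library, with open circles for fed and filled squares for fasted mice. The mean of Mchr1 is highest in PVN-Fast (12.5) and lowest in DMH-Fast (3.29), and the fasted VMH value of Npffr1 rests on a library at 14.6 RPKM.

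The enzymes and chaperones that make peptides out of precursors were measured in all nuclei. Of the 8 genes on this list, 0 passed with fasting in any nucleus. The median fasted minus fed value was 0.15 in the DMH, beside 0 over all genes tested. Cpe, the carboxypeptidase that trims cut peptides, was the most abundant, at 601 ± 35.6 RPKM in DMH-Fast. Pcsk1, a convertase that cuts precursors, was lower in DMH-Fast (11.1 ± 3.43 RPKM) than in PVN-Fast (39.2 ± 6.30) with a difference of -1.76 (SE 0.23, limma adjusted p = 2.09e-06). Pcsk2, the other main convertase, was higher in DMH-Fast than in ARC-Fast by 0.57 (SE 0.11, limma adjusted p = 0.00193) and lower than in VMH-Fast, at -0.53 (SE 0.11, limma adjusted p = 0.00178). Pcsk1n, the proSAAS precursor, was lower than in the ARC, at -0.61 (limma adjusted p = 0.00292), and Pam, the amidating enzyme, lower than in the VMH, at -0.41 (limma adjusted p = 0.00366). Pcsk1 was also lower than in the ARC, at -0.83 (limma adjusted p = 0.0410), and Cpe lower than in the PVN, at -0.31 (limma adjusted p = 0.0560). In all, 1 of the 8 was higher and 2 lower than in the ARC, 2 were lower than in the VMH, where 1.93% of all genes tested were lower, and 2 lower than in the PVN, with medians of -0.10, -0.19 and -0.32. Of all genes tested 1.9% were higher and 1.3% lower than in the ARC, and 1.36% lower than in the PVN.

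Of 6 genes listed for orexin neurons, 1 was higher and 1 lower in DMH-Fast than in ARC-Fast, 1 higher and 2 lower than in VMH-Fast, and 0 differed from PVN-Fast by the threshold, with medians of 0.11, -0.46 and 0.19. Of all genes tested 1.9%, 2.02% and 1.65% were higher against the ARC, VMH and PVN, and 1.3%, 1.93% and 1.36% lower. Dlk1, a membrane protein of the Notch ligand family, was the highest of the list in DMH-Fast at 89.1 ± 10.2 RPKM. It was higher than in the VMH by 2.27 (limma adjusted p = 4.00e-09) and lower than in the ARC, at -0.80 (limma adjusted p = 0.0552). Nptx2, a synaptic pentraxin, was lower than in the VMH, at -1.73 (limma adjusted p = 4.33e-05). Pdyn, the dynorphin precursor that orexin neurons also make, was at 44.96 ± 4.84 RPKM in DMH-Fast and passed against no other nucleus. Lhx9, a transcription factor of these neurons, had group means between 0.245 and 1.11 RPKM, the highest in DMH-Fed. Slc17a6, the glutamate transporter VGLUT2, was higher than in the ARC by 0.91 (limma adjusted p = 0.00329) and lower than in the VMH, at -1.35 (limma adjusted p = 2.96e-06). With fasting 1 of the 6 passed, Pdyn in the PVN, where 0.0715% of all genes tested passed. Pdyn was lower there in the fasted mice (difference -0.58, SE 0.12, limma adjusted p = 0.0573).

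Of 4 genes listed for MCH neurons, 0 differed between DMH-Fast and ARC-Fast by the threshold, 3 were higher than in VMH-Fast, and 1 was higher and 1 lower than in PVN-Fast, with medians of -0.46, 2.19 and 0.47. Of all genes tested 2.02% were higher than in VMH-Fast, and 1.65% were higher and 1.36% lower than in PVN-Fast. Cartpt, the CART precursor, was at 143 ± 27.0 RPKM in DMH-Fast and 13.6 ± 5.47 in VMH-Fast. Gad1, which makes GABA, was at 25.0 ± 2.14 and 1.96 ± 1.78 RPKM in these groups. Both genes are also made by many neurons that lack MCH. Tacr3, the neurokinin B receptor, was also higher than in the VMH, by 1.10 (limma adjusted p = 0.0332). Nucb2, the nesfatin precursor, was at 46.7 ± 4.205 RPKM in DMH-Fast and 46.3 ± 9.01 in VMH-Fast, and lower than in PVN-Fast, at -0.71 (limma adjusted p = 0.0178).

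Genes of the lateral hypothalamic area and zona incerta, the tissue beside the DMH, were examined because a dissection can hold some of it. Of 6 genes on this list, 3 were higher in DMH-Fast than in each of the other fasted nuclei and 0 were lower, with medians of 0.98, 0.77 and 0.73 against the ARC, VMH and PVN. The 3 were Nts, Gal and Meis2. Of all genes tested 1.9%, 2.02% and 1.65% were higher against the ARC, VMH and PVN, with a median of 0 in each. Gal, the galanin precursor, was at 226 ± 29.0 RPKM in DMH-Fast, and it exceeded the ARC by 1.40, the VMH by 4.82 and the PVN by 2.04, with limma adjusted p of 0.0512, 4.19e-11 and 0.00148. Nts, the neurotensin precursor, was at 14.7 ± 3.51 RPKM and exceeded the PVN by 2.56 (limma adjusted p = 0.000669). Meis2, a transcription factor, was at 2.03 ± 1.05 RPKM. Tac1, Lhx6 and Pvalb did not pass in any of the 3 comparisons. The summed level of the list ran from 227 to 411 RPKM in DMH-Fed and from 253 to 303 in DMH-Fast, against 48.0 to 217 in the libraries of the other 6 groups. Most of this sum was Gal. Without Gal the other 5 genes summed to 51.1 to 111 RPKM in DMH-Fed and 46.9 to 67.1 in DMH-Fast, which overlapped the 23.9 to 104.5 RPKM of the other 6 groups. Gal is also made by neurons of the DMH, so how much of the members' level came from tissue outside the nucleus was not tested.

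All but 1 of the DMH markers separated it from the ARC and VMH. The DMH markers Gpr50 and Grp were higher in DMH-Fast than in all 3 other fasted nuclei, Ppp1r17 and Cck higher than in the ARC and VMH, and Prlh was at a single value of 4.19 RPKM in every library. The summed level of Agrp, Npy and Pomc was at most 29.7 RPKM in DMH libraries against at least 836 in ARC libraries. Nr5a1 and Fezf1 summed to at most 6.43 RPKM in the DMH against at least 65.1 in the VMH, and the 4 PVN markers to at most 42.7 against at least 4482. Most of the PVN sum was Oxt and Avp. The other PVN markers, Sim1 (1.86 RPKM in DMH-Fast) and Crh (4.75), were higher in DMH-Fast than in ARC-Fast and VMH-Fast. Fezf1 (3.20) was higher than in ARC-Fast. Among markers of glia, vessels and blood, Mbp was higher in DMH-Fast than in ARC-Fast and PVN-Fast, and the others did not pass between DMH-Fast and any other fasted nucleus. With fasting, Agrp was higher in the ARC (1.61, limma adjusted p = 0.0613), Ppp1r17 higher in the PVN (1.28, limma adjusted p = 0.0345) and the astrocyte gene Aqp4 lower in the VMH (-0.94, limma adjusted p = 0.0477), and no other marker passed. In the ARC, Npy rose by 1.33 (SE 0.44) without overlap of fed and fasted libraries, but its limma adjusted p was 0.464. A gene that did not pass with fasting is therefore not shown to be unchanged.

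Over all 42 libraries the pattern of Hcrt was closest to that of Npvf, with a Pearson r of 0.963 on log2(RPKM + 1), followed by Parpbp at 0.922 and Pmch at 0.904. Outside the members, the 5 genes most like Hcrt were Hmx3, a transcription factor (0.859), Synpr, a synaptic vesicle protein (0.857), Gabrg3, a GABA receptor subunit (0.833), Grp, the precursor of gastrin-releasing peptide (0.832), and Rorb, a nuclear receptor (0.809). The same 5 genes were the most like Npvf, at 0.829 to 0.871. Those most like Pmch were Hdc, the histamine-making enzyme (0.834), Nxph1, a neurexin ligand (0.810), Nts (0.770), Gabrg3 (0.764) and Chn2, a Rac regulator (0.763). With a pseudocount of 0.1 the 5 genes of Hcrt and of Npvf were the same, but only 3 of the 5 of Pmch, with Syt1 and Itih3 in place of Gabrg3 and Chn2. Each member was higher in all 9 DMH libraries than in any other library, so these values include that contrast. How much of the likeness it makes up was not tested, and no p is given. Hmx3 was at 3.04 RPKM in DMH-Fed and 2.79 in DMH-Fast, against 0.725 to 1.37 in the other groups, and Hdc at 7.58 and 6.28, against 0.493 to 2.77.

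Within the DMH no pair of the 3 peptides passed a test of correlation. Over the 9 libraries Hcrt and Pmch had a Pearson r of 0.54 (exact permutation p = 0.137, adjusted over the 3 pairs 0.287) and a Spearman rho of 0.20 (exact permutation p = 0.613, adjusted 0.948). Hcrt and Npvf had r = -0.17 (exact permutation p = 0.651, adjusted 0.651) and rho = 0.03 (exact p = 0.948, adjusted 0.948). Pmch and Npvf had r = -0.48 (exact permutation p = 0.191, adjusted 0.287) and rho = -0.13 (exact p = 0.744, adjusted 0.948). Without the 2 libraries farthest from the median of the first gene of the pair, r was 0.46, -0.37 and 0.68. Without DMH-Fed library 1 alone it was 0.08, 0.37 and 0.11, so the pooled values rested on that library. Within set 2, of 4 libraries, r was -0.90, 0.89 and -0.87, and within set 3, also of 4, it was -0.34, -0.28 and 0.63, without a common sign. On scaled reads the 3 values were 0.40, -0.10 and 0.00.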

How the data were processed

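The authors cut nuclei out by laser capture, amplified the RNA, sequenced it unstranded and single-end, and deposited RPKM values for 37907 genes on GRCm38 in 42 libraries. The submitters' processing notes name CASAVA 1.7, TopHat2 2.0.11, Cufflinks 2.2.1, edgeR and limma. The methods name 3 batches of capture and preparation, and some outlying samples were removed by the authors. Nothing in the sources used here ties a library to a batch or a mouse, so p-values measure the spread between libraries. A symbol was found for 36049 of the genes.

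The deposited RPKM were tested with limma 3.58.1 (R 4.3.3) on log2(RPKM + 1) for 33579 genes of at least 1 RPKM in at least 4 libraries, with 8 group means, an intensity trend, two-sided tests and Benjamini-Hochberg adjustment over all genes (threshold 0.1). Fold changes on this scale understate those of low genes. The filter kept genes whose no-read value was at or above it, so every share and median over all genes tested includes unread genes. Exact permutation tests are given beside it for the members.

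Low values were whole multiples of a step once an added count, 5 reads in the mean and larger in deeper libraries, was taken off. In each library 97.7% to 98.7% of low values then came out whole within 0.01 reads, which gave reads and relative depth. Total reads were set from exon lengths, so depth is an estimate. It is the library size that the RPKM values imply, and it is lower than the mean of sequenced reads per sample that the paper reports over a larger set of samples. No count test was run on the recovered reads. The sets of libraries were found from shared no-read values, and whether they are the 3 batches is not given in the sources used here.

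Named genes were the members, the 5 genes most like each peptide gene over the 42 libraries, and the genes of the lists, described by counts with examples, the highest in level and those past the threshold. The members and lists were chosen with earlier results of these data known. Alternatives changed the pseudocount (0.1 and 5), the filter (none and 5 RPKM), the trend, array weights, a median shift, a set term, a replicate block, the groups in the fit and single libraries. The use of reads and the description of VMH-Fast beside ARC-Fast and PVN-Fast were added after the data had been seen. The scripts were tested on simulated data.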

Additional observations from a re-analysis of the deposited data

Results flagged for a closer look

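In each group of 4 to 6 libraries, a library was singled out when its gap to the next value was a large share of the range of the group (Dixon's test at 95%). This happened in 20 of 96 groups of values, where chance gives about 4.8. In RPKM it was 15 of 72, with 13 of the libraries in set 1, and as scaled reads 5 of 24, with 1 in set 1. No cause was tested.

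In the DMH, DMH-Fed library 1 was at 1003 RPKM of Pmch against 220 to 307 in the other fed libraries, and at 535 RPKM of Parpbp against 67.3 to 107. DMH-Fast library 1 had 746 scaled reads of Npvf against 391 to 450 in the other fasted libraries. In the PVN, PVN-Fed library 5 was at 11.4 RPKM of Pmch against 1.38 to 4.47, and at 156 scaled reads of the Pmch locus against 3.13 to 20.1. PVN-Fast library 1 was at 3.94 RPKM of Pmch against 1.204 to 1.904. VMH-Fast library 1 was at 15.8 RPKM of Parpbp against 5.09 to 6.86.

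Npvf was at 2.53 RPKM in ARC-Fed library 1 (others 1.31 to 1.45), 5.10 in ARC-Fast library 1 (1.13 to 1.84), 4.77 in VMH-Fast library 2 (1.26 to 2.54) and 2.53 in PVN-Fast library 1 (0.940 to 1.33). As scaled reads of Npvf, ARC-Fed library 1 held 0 against 1.88 to 2.11, so its RPKM was the highest of the group with no read. VMH-Fed library 6 held 11.9 scaled reads of Npvf against 1.48 to 4.25. ARC-Fed library 3 held 1.06 scaled reads of Hcrt against 2.82 to 3.41. Both rest on very few reads.

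Among the receptors, Hcrtr1 was at 5.48 RPKM in PVN-Fast library 1 (others 0.403 to 1.41) and Hcrtr2 at 1.37 RPKM in VMH-Fast library 2 (others 3.60 to 4.26). Npffr1 was at 14.6 RPKM in VMH-Fast library 1 (1.28 to 3.18), 2.87 in DMH-Fed library 2 (0.677 to 1.22) and 4.30 in PVN-Fed library 2 (1.52 to 1.96). Npffr2 was at 1.54 RPKM in VMH-Fast library 1 (0.771 to 0.968).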

How the results depend on the processing

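All 12 comparisons of a member between DMH-Fast and another fasted nucleus kept their direction and passed under every alternative that gave a test, and no alternative brought a fasting difference of a member past the threshold. The fasting differences in the DMH were near 0 and turned sign with small changes: Hcrt to -0.21 with a replicate block, Pmch to 0.0271 with a set term and 0.24 on reads, Parpbp to 0.0222 with array weights and 0.32 on reads, and Npvf to 0.0150 with array weights, 0.0876 with a set term and 0.26 on reads. The correlation of Pmch and Npvf was 0.00106 on reads. The cause was not tested. Within sets, with few libraries each, fasting differences reached -1.17 (set 2) and 0.58 (set 3) for Pmch, -0.64 and 0.28 for Parpbp and 0.79 (set 1) for Npvf in the ARC, 1.03 (set 1) for Parpbp in the VMH, 1.48 (set 3) for Hcrt in the DMH and -1.34 (set 3) for Pmch in the PVN. DMH-Fast exceeded ARC-Fast within sets 2 and 3 by 7.61 and 6.23 for Pmch and 6.57 and 5.62 for Parpbp, VMH-Fast by 4.73 and 3.66 for Pmch, and PVN-Fast by 6.68 for Parpbp in set 2. VMH-Fast differed from ARC-Fast by -0.43 for Npvf in set 1, and from PVN-Fast by 2.06 and 3.24 for Pmch in sets 1 and 3. The number of genes past the threshold with fasting moved by more than 1.5 times in the ARC (19) to 8 with pseudocount 0.1, 40 with array weights, 3 with the block and 0 in a fit on the groups compared. In the VMH (44) it moved to 16 with array weights, 24 with a set term, 0 with the block and 1 on the groups compared. In the DMH (8) it moved to 5 with the filter of 5 RPKM, 56 with array weights, 5 with the block and 0 on the groups compared. In the PVN (24) it moved to 41 with pseudocount 5, 141 with array weights and 3 on the groups compared. The fit on the groups compared called 541, 866 and 560 genes between DMH-Fast and ARC-Fast, VMH-Fast and PVN-Fast, where the fit on all groups called 1077, 1324 and 1009, and array weights called 1565 against the PVN. The interaction (2) gave 1 with pseudocount 0.1, 6 with pseudocount 5, 1 with the filter of 5 RPKM and 8 with array weights. Same-numbered libraries did not deviate together (r from -0.121 to 0.054 over 20 fed and fasted pairs and -0.131 to 0.065 over 58 pairs of nuclei). A mouse was either fed or fasted, and libraries of 1 number could lie in different sets. These values therefore cannot show whether libraries of different nuclei shared a mouse.

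Leaving out a library in turn gave fasting differences in the ARC of -0.19 to 0.12 for Hcrt, -0.54 to -0.11 for Pmch, -0.24 to -0.03 for Parpbp and -0.0610 to 0.32 for Npvf. In the VMH they were 0.09 to 0.38, 0.09 to 0.48, 0.17 to 0.58 and -0.19 to 0.0782, in the DMH -0.22 to 0.57, -0.27 to 0.30, -0.34 to 0.40 and -0.24 to 0.10, and in the PVN -0.10 to 0.12, -0.72 to -0.20, -0.70 to -0.33 and -0.35 to -0.09. Npvf in VMH-Fast against ARC-Fast ranged from -0.00776 to 0.42. The correlations ranged from 0.08 to 0.71 (Hcrt and Pmch), -0.42 to 0.37 (Hcrt and Npvf) and -0.66 to 0.11 (Pmch and Npvf), and DMH-Fed library 1 turned the last 2. The number of genes past the threshold ranged from 6 to 31 in the ARC (moved over 1.5 times by ARC-Fast libraries 1, 2, 3 and 5 and ARC-Fed 2, 3 and 4), 16 to 64 in the VMH (VMH-Fast 2 and 4, VMH-Fed 1, 2 and 4), 6 to 89 in the DMH (all 4 DMH-Fast and DMH-Fed 1, 2 and 3), 11 to 48 in the PVN (PVN-Fast 1, 2, 4 and 5, PVN-Fed 4) and 2 to 7 for the interaction (ARC-Fast 3, ARC-Fed 2, DMH-Fast 2 and 4, DMH-Fed 2, VMH-Fed 3). Depth limits Hcrt and Npvf outside the DMH, where most libraries held under 10 reads.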
